A study of Rattus norvegicus with 10 samples.

Results

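Hmox1, Nqo1, Gclc, Gclm, Txnrd1, Sod1, Sod2, Cat, Gpx1 and Gpx4 are 10 genes of antioxidant defence, several of them classical targets of the transcription factor Nrf2. They were taken by name from the 17168 gene symbols of the deposited tables, and all 10 were among the 11791 genes that passed a filter on low counts. Their RNA was measured in 10 left hippocampi, each from a female TgF344-AD rat (genotype Tg-AD), a model of Alzheimer's disease that carries mutant human amyloid precursor protein and presenilin transgenes driven by a prion promoter. Both groups carried the transgenes and were killed at 11 months of age, after ketamine and xylazine anaesthesia and perfusion, so the comparison is between treatments and not between genotypes. The 5 untreated animals ate rodent chow, and the 5 treated animals ate chow with 750 mg of RG2833 per kg of chow for 6 months from 5 months of age. RG2833 inhibits the histone deacetylases HDAC1 and HDAC3, and a blue food dye served to tell the chows apart. The comparison asks how the drug changes hippocampal gene expression in these transgenic rats.

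Nrf2, encoded by Nfe2l2, is held at a low level by Keap1, an adaptor that passes it to a Cul3 and Rbx1 ubiquitin ligase. When electrophiles or oxidants modify Keap1, Nrf2 builds up, pairs with small Maf proteins and binds antioxidant response elements near genes for glutathione synthesis, quinone reduction and thioredoxin recycling. Superoxide dismutases turn superoxide into hydrogen peroxide, which catalase, glutathione peroxidases and peroxiredoxins then remove. In brain, much of the Nrf2 activity is ascribed to astrocytes and other non-neuronal cells.

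The core of the antioxidant response element, TGACNNNGC on either strand, was sought in the promoter windows of RefSeq (build GRCr8, 250 bases before to 50 after each listed start). Of the 10 genes 9 had a window, and 3 of these 9 held the core, against 13.1% of the 27457 genes in the table. The stretches with a match are shown 5′ to 3′ on the gene's strand, with the match in capitals, because this element is the sequence that Nrf2 binds. In each, the capitals are the reverse complement of the core, which thus reads on the strand opposite the gene. The stretches lie at chr2:213031943-213031991 (Gclm, plus strand), chr7:22755954-22756002 (Txnrd1, minus strand, 1 of its 2 windows) and chr1:50050175-50050223 (Sod2, minus strand).
Gclm: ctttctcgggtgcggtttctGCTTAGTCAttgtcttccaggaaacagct
Txnrd1: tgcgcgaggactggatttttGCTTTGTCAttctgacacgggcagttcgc
Sod2: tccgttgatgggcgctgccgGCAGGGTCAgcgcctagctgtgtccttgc
The 100 bases before the starts of Sod1 (chr11:42942723-42942822, plus strand) and Cat (chr3:110329527-110329626, minus strand) are shown for the members with the smallest p-values, and the windows of both held no match.
Sod1: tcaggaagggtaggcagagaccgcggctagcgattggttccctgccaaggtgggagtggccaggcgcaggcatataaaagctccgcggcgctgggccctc
Cat: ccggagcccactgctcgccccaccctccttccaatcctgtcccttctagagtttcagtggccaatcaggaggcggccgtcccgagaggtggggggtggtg
A match is a run of letters and not a measured binding site. Bases outside the windows were not searched, and Hmox1 had no window, so a gene without a match may hold the element elsewhere.

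The libraries held between 8764266 and 11311673 estimated counts. Ribosomal RNA loci took a share of the counts that was 3.83 ± 1.29% (SD, n = 5) in untreated and 1.56 ± 0.368% (SD, n = 5) in RG2833 animals, with no overlap (exact permutation test, two-sided, p = 0.00794, the smallest that 5 against 5 allows). This share and the treatment therefore cannot be told apart. Untreated replicate 1 stood apart in choroid plexus RNA: the summed level of 6 choroid plexus markers was 2472 CPM there and at most 45.0 CPM in each other animal. Excitatory neuron markers of the hippocampus were abundant, with a summed level over 6 genes of 4834 to 6594 CPM without and 6698 to 7343 CPM with RG2833, so the groups did not overlap, and 1 of the 6, Camk2a, was called by edgeR, higher, against 2.41% of all genes tested (2 at an unadjusted p under 0.05, Camk2a and Slc17a7, both higher, against 11.8%). The 6 endothelial markers summed to 188 to 290 CPM without and 173 to 192 CPM with RG2833, and 0 of the 6 were called by edgeR (4 at an unadjusted p under 0.05, each lower, against 12.7% of all genes tested). The summed levels of the tested lists for astrocytes (2529 to 4275 CPM without and 3089 to 4088 CPM with RG2833), microglia, oligodendrocytes, inhibitory neurons, red blood cells and meninges overlapped between the groups, and no marker with a row was at 0 in all animals. Of the 6 microglial markers 1 was called by edgeR, against 2.67% of all genes called lower. This was Aif1, which was lower with RG2833, the direction of the genes called below: it was 21.5 to 49.1 CPM without and 20.2 to 23.0 CPM with RG2833 (log2 change -0.74, SE 0.20, adjusted p = 0.0496). Of the 6 meningeal and fibroblast markers 0 were called by edgeR and 2 had an unadjusted p under 0.05, both lower: Dcn (18.3 ± 9.42 CPM without and 7.62 ± 2.93 CPM with RG2833, SD, n = 5; log2 change -1.26, adjusted p = 0.0561 by edgeR) and Lum (11.5 ± 9.99 and 4.42 ± 1.57 CPM; log2 change -1.37, adjusted p = 0.154), against 12.7% of all genes tested. The estimates of this list were above 0 for 3 of the 6 genes and below 0 for 3. The part of these cell markers in the results below was not tested. CPM here means counts scaled to a common library total with TMM factors, which assume that most genes do not change.

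Of the 10 genes, only Sod1 passed the test, and it fell with RG2833 (edgeR quasi-likelihood test, adjusted p under 0.05 over all genes). This count of 1 in 10 stands against 5.08% of all genes tested, of which 2.41% were called higher and 2.67% lower. DESeq2 called 11.4% of the 11328 genes it gave an adjusted p (5.42% higher and 6.01% lower), limma-voom 4.66% of all genes tested, and limma trend 5.16% and 4.89% at pseudocounts of 1 and 0.1. By edgeR 0 of the 10 were called higher, against 1 at an unadjusted p under 0.05 and 1 by DESeq2 (Cat in each case). Only for Cat, among the 10, the groups did not overlap, with higher values under RG2833. Among all genes tested 7.27% showed no overlap, 3.80% with RG2833 higher and 3.47% with RG2833 lower. At an unadjusted p under 0.05, 2 of the 10 passed, against 24.5% of all genes. The log2 fold change was below 0 for 7 of the 10 and above 0 for 3, with a median of -0.13 against a median of -0.0035 for all genes. The changes were small: the 10 estimates ran from -0.40 to 0.22.

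**Figure D1:**
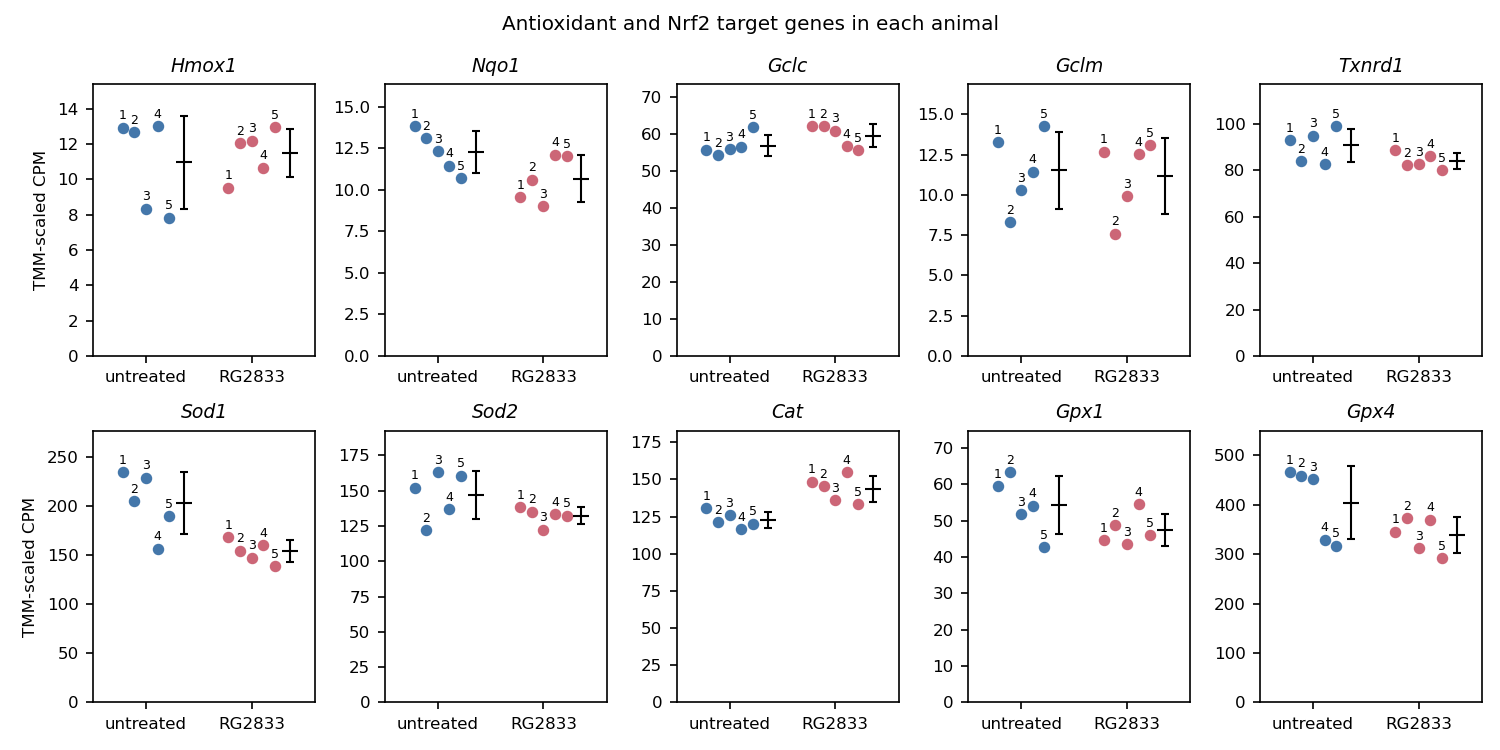
TMM-scaled CPM of each of the 10 genes in each animal; digits are replicate numbers, blue points are untreated and red points RG2833 animals, and bars are the mean ± SD (n = 5). The 5 Cat values of RG2833 animals, 133 to 155 CPM, lie above the 5 untreated values, and untreated replicate 4 has a Sod1 value inside the RG2833 range.

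Sod1 encodes the copper and zinc superoxide dismutase of the cytosol. In untreated replicates 1 to 5 its level was 234, 205, 228, 156 and 189 CPM. In RG2833 replicates 1 to 5 it was 168, 154, 147, 160 and 139 CPM. The groups overlapped through untreated replicate 4, whose level lay below those of RG2833 replicates 1 and 4, whereas the other 4 untreated animals lay above every RG2833 animal. Its mean of 203 ± 31.4 CPM in untreated animals fell to 154 ± 11.4 CPM with RG2833 (SD, n = 5), a log2 change of -0.40 (SE 0.11, adjusted p = 0.0494 by edgeR), or a fall to 0.759 of the untreated level (95% interval 0.648 to 0.889). A lower level in whole tissue does not tell fewer cells of a type from less RNA per cell, here or for the genes below. The call sat at the threshold: it was kept in 2 of the 10 fits that each left out 1 animal, those without untreated replicate 4 or 5 (edgeR adjusted p from 0.00503 to 0.129 over the 10). It was also lost without the low-count filter, with limma, with the replicate block (log2 fold change -0.39, edgeR adjusted p = 0.0851) and with the choroid plexus score as covariate (adjusted p from 0.0523 to 0.0865), with 1 surrogate variable (log2 fold change -0.17, adjusted p = 0.583) and when the ribosomal RNA share was a covariate in the fit (-0.13), and these last fits shrank the estimate by more than 1.5 times.

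Sod2, the manganese superoxide dismutase of mitochondria, did not pass. Its level was 122 to 163 CPM in untreated animals with a median of 152, and 122 to 138 CPM in RG2833 animals with a median of 133. All 5 RG2833 values lay below the untreated median, and the groups overlapped through untreated replicates 2 and 4. The log2 change was -0.15 (SE 0.084, adjusted p = 0.282 by edgeR), with a 95% interval of the fold of 0.793 to 1.02. Whether the change of Sod1 differed from that of Sod2 was not tested. Of the genes around them, Ccs, the copper chaperone that loads Sod1, had a log2 change of -0.011 (SE 0.085, adjusted p = 0.948 by edgeR).

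Cat encodes catalase, the peroxisomal enzyme that splits hydrogen peroxide. Its level was 131, 121, 126, 117 and 120 CPM in untreated replicates 1 to 5. It was 148, 145, 136, 155 and 133 CPM in RG2833 replicates 1 to 5. Each RG2833 animal thus lay above each untreated animal, and the spread within each group was small (coefficients of variation of 4.39% and 6.19%). The means were 123 ± 5.39 and 143 ± 8.88 CPM (SD, n = 5), a log2 change of 0.22 (SE 0.065, adjusted p = 0.0639 by edgeR), or a fold of 1.17 (95% interval 1.06 to 1.29). The estimate was positive in each of the 10 fits without 1 animal (0.19 to 0.25), and only DESeq2's Wald test among the other fits called it (adjusted p = 0.0144). Cat was also the only one of the 10 genes whose estimated counts were split numbers, in all 10 animals, as RSEM gives where reads are shared between loci, so its level is uncertain in that respect. Such split counts occurred in 17.5% of all genes tested.

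Gpx1 and Gpx4 are selenium-containing glutathione peroxidases. Gpx1 reduces hydrogen peroxide, and Gpx4 reduces lipid hydroperoxides in membranes and so protects cells from ferroptosis. Gpx4 was at 465, 459, 451, 329 and 317 CPM in untreated replicates 1 to 5. In RG2833 replicates 1 to 5 it was at 346, 373, 312, 370 and 293 CPM. The untreated animals fell into a high set of 3 (replicates 1 to 3) and a low pair (replicates 4 and 5), and the low pair lay within the RG2833 range. The means were 404 ± 74.4 and 339 ± 35.6 CPM (SD, n = 5), and the difference did not pass (log2 change -0.26, SE 0.12, adjusted p = 0.229 by edgeR; 95% interval of the fold 0.695 to 1.01). Gpx1 did not pass either: it was 42.7 to 63.2 CPM without and 43.5 to 54.5 CPM with RG2833, a log2 change of -0.19 (SE 0.10, adjusted p = 0.277 by edgeR).

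Sod1, Cat and Gpx4 shared part of their ranking of animals within the treated group. Of these 3 genes only Sod1 passed the test, and the estimate for Cat had the sign opposite to those of Sod1 and Gpx4. RG2833 replicates 3 and 5 had the 2 lowest levels of each of these 3 genes. Among untreated animals, replicates 4 and 5 had the 2 lowest levels of each of them, and replicate 1 the highest. Hmox1 and Gclm ranked the animals in other orders. For Hmox1, untreated replicate 4 was the highest of the 10 animals. Such likeness was not particular to Sod1, Cat and Gpx4. With the group means removed, Pearson's r of log2 CPM was 0.810 for Sod1 and Gpx4. It was 0.815 for Txnrd1 and Sod2, 0.752 for Nqo1 and Gpx1, -0.845 for Hmox1 and Txnrd1 and -0.815 for Nqo1 and Gclc.

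**Figure D2:**
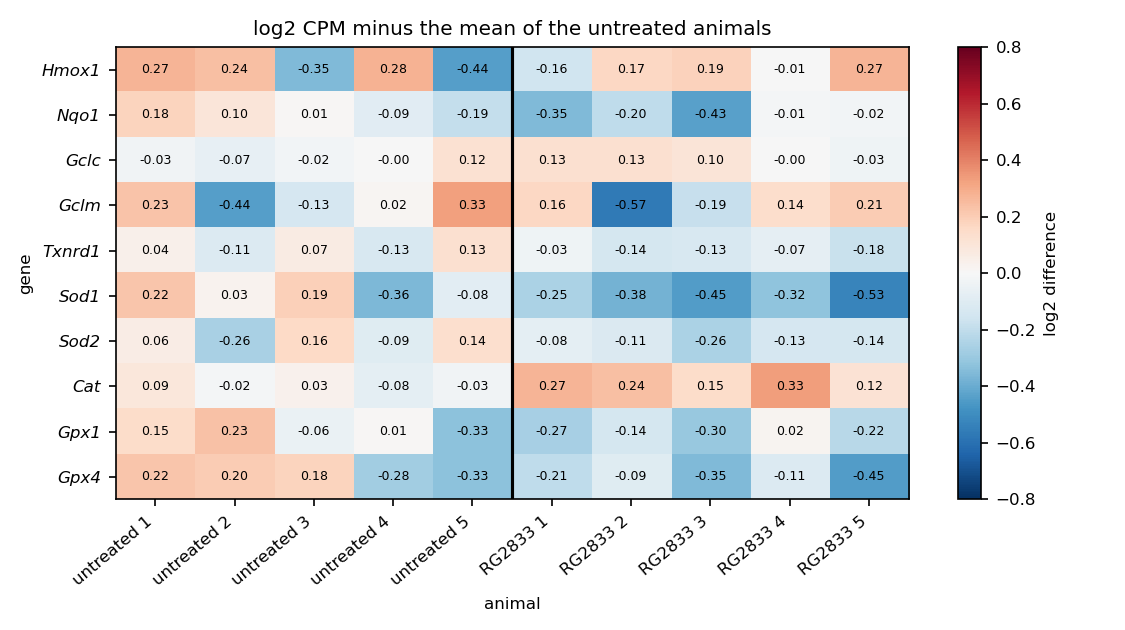
Log2 CPM of each gene in each animal minus the mean of the 5 untreated animals, with the vertical line between the groups and colour and digits giving the log2 difference. The Sod1 row is below 0 in all 5 RG2833 animals and in untreated replicate 4 (-0.36) and replicate 5 (-0.08), and the Cat row is above 0 in all 5 RG2833 animals (0.12 to 0.33).

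The other 5 genes, classical targets of Nrf2, did not pass the test in either direction. Hmox1, heme oxygenase, which cleaves heme to biliverdin, carbon monoxide and iron, was at 12.9, 12.7, 8.34, 13.0 and 7.83 CPM in untreated replicates 1 to 5. It was at 9.54, 12.04, 12.2, 10.7 and 13.0 CPM in RG2833 replicates 1 to 5. The untreated animals spread more widely than the treated ones, and all RG2833 values fell within the untreated range. The log2 change was 0.067 (SE 0.17, adjusted p = 0.838 by edgeR), and the 95% interval of the fold ran from 0.816 to 1.34. At a mean of 112 counts per animal, Hmox1 had one of the least precise estimates of the 10.

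Nqo1, the quinone reductase, had levels of 13.8, 13.1, 12.3, 11.4 and 10.7 CPM in untreated replicates 1 to 5. Its levels in RG2833 replicates 1 to 5 were 9.54, 10.6, 8.99, 12.1 and 12.03 CPM. All 5 RG2833 values lay below the untreated median, and 3 lay below every untreated value. The log2 change was -0.20 (SE 0.12, adjusted p = 0.317 by edgeR; 95% interval of the fold 0.724 to 1.04). The groups overlapped through RG2833 replicates 4 and 5.

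Gclc and Gclm encode the catalytic and modifier subunits of glutamate-cysteine ligase, the rate-limiting enzyme of glutathione synthesis. Gclc was 54.2 to 61.8 CPM without and 55.6 to 62.2 CPM with RG2833. Its estimate was among the most precise of the 10, a log2 change of 0.066 (SE 0.064, adjusted p = 0.56 by edgeR; 95% interval of the fold 0.950 to 1.15). Gclm varied more, from 8.29 to 14.3 CPM in untreated and from 7.58 to 13.1 CPM in RG2833 animals, and its log2 change was -0.045 (SE 0.18, adjusted p = 0.90 by edgeR; 95% interval of the fold 0.740 to 1.27). Txnrd1, the cytosolic thioredoxin reductase, was 82.8 to 99.2 CPM without and 80.2 to 88.6 CPM with RG2833. Its log2 change was -0.11 (SE 0.068, adjusted p = 0.325 by edgeR; 95% interval of the fold 0.835 to 1.02). The groups overlapped for all 3 genes. Gclm and Txnrd1 are, with Sod2, the members whose printed stretches hold the core motif.

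**Figure D3:**
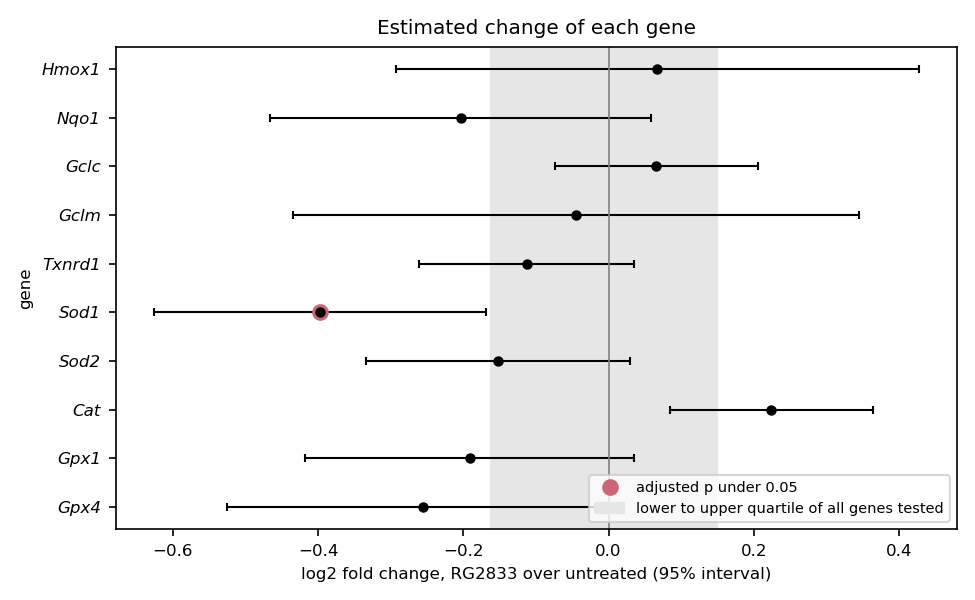
Log2 fold change of each gene, RG2833 over untreated, with its 95% interval from the edgeR fit; the ringed point marks an adjusted p under 0.05 and the grey band runs from the lower to the upper quartile of all genes tested (-0.16 to 0.15). Sod1 (-0.40) and Cat (0.22) have intervals that leave out 0, and the intervals of the other 8 genes include it.

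Regulators of Nrf2 were examined through 13 listed genes, of which 12 were tested. By edgeR 0 of the 12 were called, against 3 at an unadjusted p under 0.05 and 2 by DESeq2's Wald test (Rbx1 and Nfe2l2, both lower). Over all genes tested 5.08% were called and 24.5% had an unadjusted p under 0.05, so the 3 of 12, or 25%, lay at the share of all genes. The 2 of 12 called by DESeq2 stood against its 11.4% in either direction and 6.01% lower. limma-voom and limma trend called 0. The 3 with the smallest p were Rbx1, Nfe2l2 and Btrc. Rbx1, the RING subunit of the ligase that acts with Keap1, was 70.6 to 83.2 CPM without and 58.9 to 67.6 CPM with RG2833, without overlap (log2 change -0.25, SE 0.068, adjusted p = 0.0529 by edgeR; -0.16 with the ribosomal RNA share as covariate). Nfe2l2 itself was 28.7, 28.3, 27.3, 26.9 and 24.6 CPM in untreated replicates 1 to 5. In RG2833 replicates 1 to 5 it was 18.8, 24.7, 23.7, 23.5 and 19.7 CPM. Only RG2833 replicate 2 reached above the lowest untreated animal, and the difference did not pass (log2 change -0.30, SE 0.095, adjusted p = 0.0822 by edgeR). Btrc, a substrate receptor of another ligase that acts on Nrf2, had a log2 change of 0.26 (SE 0.097, adjusted p = 0.128 by edgeR; 0.17 with the ribosomal RNA share as covariate). Keap1 was 90.4 ± 3.02 CPM without and 94.5 ± 4.86 CPM with RG2833 (SD, n = 5; log2 change 0.063, SE 0.060, adjusted p = 0.543 by edgeR).

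Of 24 other listed Nrf2 targets, 22 were tested, and 2 fell: Prdx1, a cytosolic peroxiredoxin, and Txn1, the cytosolic thioredoxin that recharges peroxiredoxins. None rose by edgeR, at an unadjusted p under 0.05 (0 higher, 4 lower) or by DESeq2 (0 higher, 4 lower, with Gsta4 and Mt1 beside the pair). Over all genes tested edgeR called 2.41% higher and 2.67% lower, and 11.8% were higher at an unadjusted p under 0.05. DESeq2 called 5.42% of its genes higher. The 4 of 22 at an unadjusted p under 0.05, or 18.2%, stood against 24.5% of all genes tested in either direction and 12.7% lower, and the 4 that DESeq2 called against its 11.4% in either direction and 6.01% lower. Prdx1 was at 150, 117, 128, 106 and 100.1 CPM in untreated replicates 1 to 5, and at 93.4, 84.6, 80.9, 91.0 and 73.7 CPM in RG2833 replicates 1 to 5. The groups did not overlap, and the log2 change was -0.50 (SE 0.11, adjusted p = 0.0272 by edgeR). Txn1 was at 35.9, 32.9, 33.9, 27.6 and 24.8 CPM in untreated replicates 1 to 5. It was at 23.9, 22.5, 19.4, 20.8 and 20.2 CPM in RG2833 replicates 1 to 5. Its groups did not overlap either, and the log2 change was -0.54 (SE 0.11, adjusted p = 0.0241 by edgeR). Prdx1 and Txn1 were each called in 4 of the 10 fits without 1 animal (both without untreated replicate 2, 4 or 5, Prdx1 also without RG2833 replicate 4 and Txn1 without RG2833 replicate 1; adjusted p from 0.00627 to 0.0825 over the fits of both). Neither was called with 1 surrogate variable (log2 fold changes -0.40 and -0.44) or with the ribosomal RNA share as covariate (-0.38 and -0.23). With the choroid plexus score as covariate Prdx1 was not called (log2 change -0.46, adjusted p = 0.0530 by edgeR), and Txn1 was (adjusted p = 0.0474). The median over the 22 genes was -0.080.

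The Prdx1 promoter held the core motif, which reads on the strand opposite the gene. The stretch around it, at chr5:135383751-135383799 of GRCr8, is given on the gene's plus strand and printed because Prdx1 fell and its window has a match. The capitals also hold the letters TGAGTCA, which are an AP-1 motif, so the letters do not tell the 2 motifs apart.
Prdx1: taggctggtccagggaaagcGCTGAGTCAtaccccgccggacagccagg
Among the 20 listed targets beyond the 10 genes that had a window, 7 held the core, as did 2 of 12 regulators and 5 of 21 other antioxidant genes, against 13.1% of all genes in the table. Prdx1 alone among the 7 targets was called by edgeR. Me1, Gstp1 and Ephx1, whose matches also hold an AP-1 motif, were not called (log2 changes -0.10, -0.091 and -0.18). Whether the motif goes with the fall of Prdx1 was not tested. The window of Txn1 held none.

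Of 27 other antioxidant genes, all 27 were tested and 2 fell: Glrx2, a mitochondrial glutaredoxin, and Prdx3, the mitochondrial peroxiredoxin. None of the 27 rose by edgeR (2 higher and 5 lower at an unadjusted p under 0.05; 0 higher and 4 lower by DESeq2, with Glrx and Glrx3 beside the pair). Among all genes tested edgeR called 2.41% higher and 2.67% lower. At an unadjusted p under 0.05, 11.8% were higher and 12.7% lower, and DESeq2 called 5.42% of its genes higher. The 7 of 27 at an unadjusted p under 0.05, or 25.9%, lay near the 24.5% of all genes tested, and the 4 that DESeq2 called stood against its 11.4% in either direction and 6.01% lower. Glrx2 was 36.9 to 47.4 CPM without and 27.8 to 33.7 CPM with RG2833, without overlap (log2 change -0.37, SE 0.085, adjusted p = 0.0328 by edgeR). Prdx3 was 49.98 to 60.05 CPM without and 38.3 to 48.8 CPM with RG2833, also without overlap (log2 change -0.35, SE 0.089, adjusted p = 0.0458 by edgeR). Of the 10 fits without 1 animal, Glrx2 was called in 2 (without untreated replicate 4 or 5) and Prdx3 in 1 (without untreated replicate 4), with adjusted p from 0.0176 to 0.119 over the fits of both. With 1 surrogate variable and with the ribosomal RNA share, the Prdx3 change shrank to -0.20 and -0.19 and that of Glrx2 to -0.33 and -0.22, and none of these passed. Both calls were also lost, with estimates between -0.39 and -0.34, with the replicate block (edgeR adjusted p = 0.0548 for Glrx2 and 0.0987 for Prdx3) and with the choroid plexus score as covariate (0.0505 and 0.0786). Without the low-count filter Prdx3 was not called (adjusted p = 0.0538 by edgeR). The median over the 27 genes was -0.066. The shares called on these lists, 9.09% and 7.41%, stood against 5.08% of all genes tested.

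**Figure D4:**
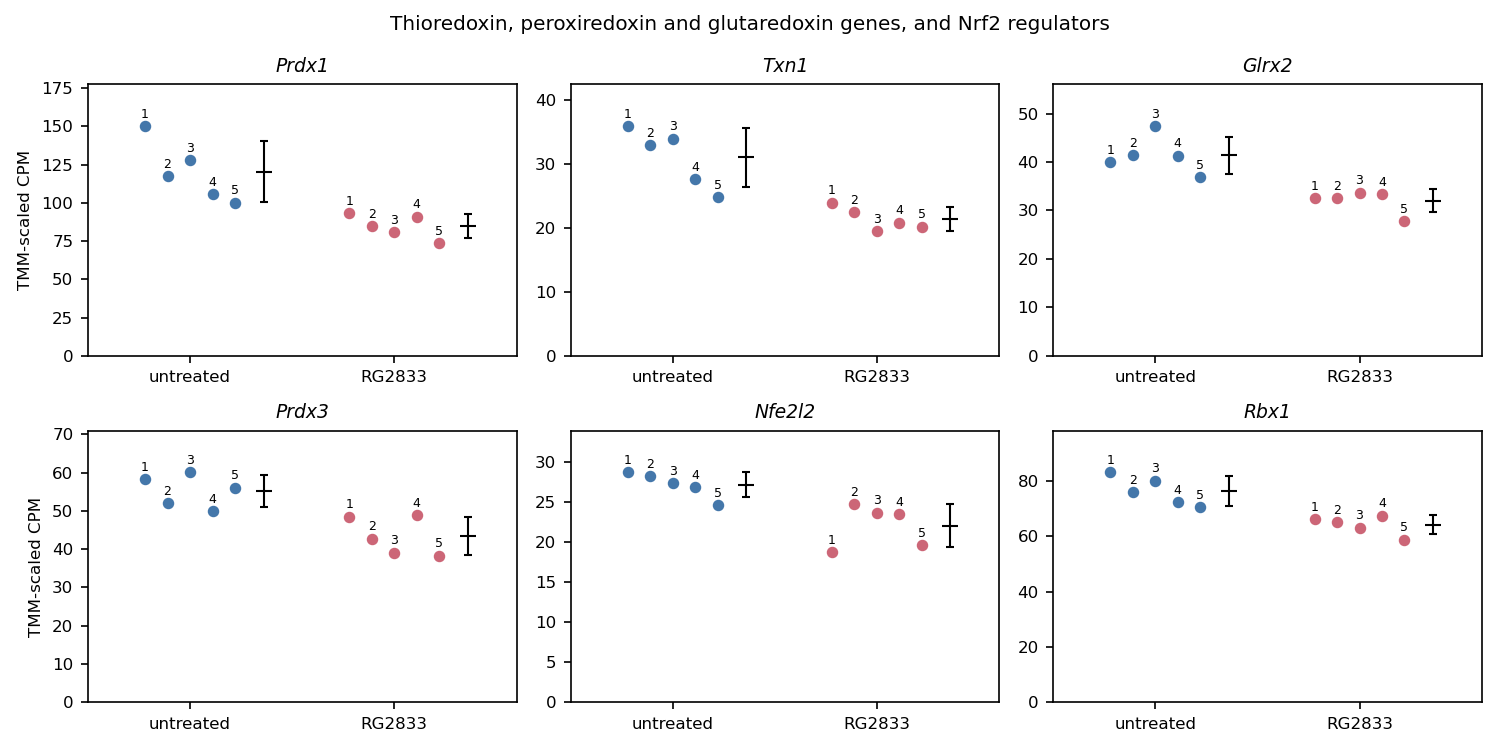
TMM-scaled CPM in each animal of 4 genes that passed the test (Prdx1, Txn1, Glrx2, Prdx3) and of Nfe2l2 and Rbx1, which did not; digits are replicate numbers, blue points untreated and red points RG2833 animals, bars the mean ± SD (n = 5). Each of the 4 called genes and Rbx1 has its 5 RG2833 values below the 5 untreated values.

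**Figure D5:**
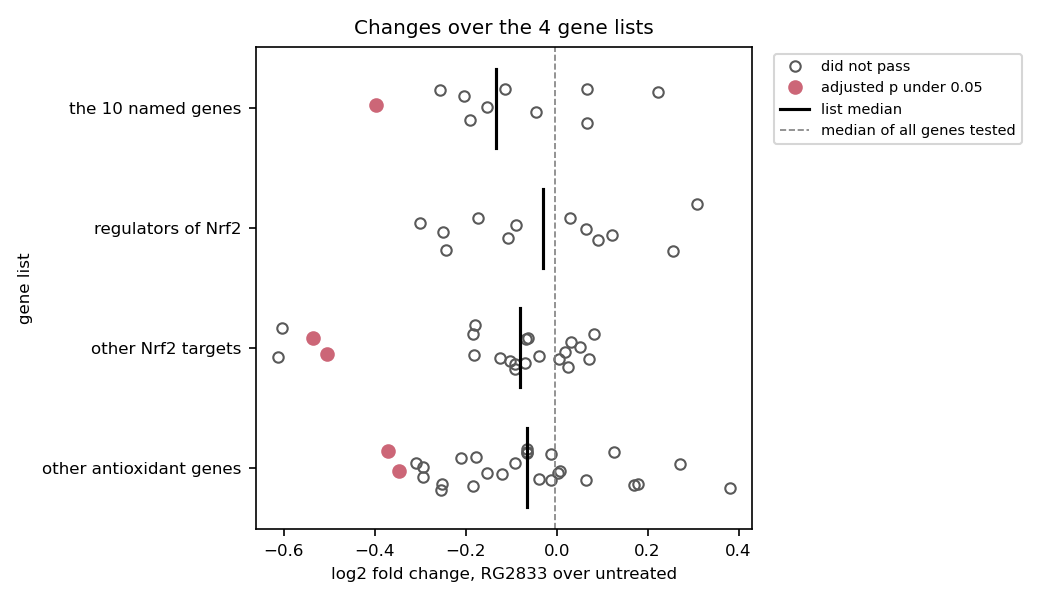
Log2 fold change, RG2833 over untreated, of each tested gene on the 4 lists, with filled points at an adjusted p under 0.05 and a black bar at the list median. All 5 filled points (Sod1, Prdx1, Txn1, Glrx2, Prdx3) lie below 0, and the list medians run from -0.13 to -0.030.

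The genes whose levels followed Sod1 most closely over the 10 animals, by Pearson's r of log2 CPM over all genes tested, were Mrps14 (r = 0.983), Umps (0.975) and Ndufs8 (0.974). Mrps14 encodes a protein of the mitochondrial ribosome, Umps an enzyme of pyrimidine synthesis and Ndufs8 a subunit of respiratory complex I. After the group means were removed, r with Sod1 was 0.959, 0.946 and 0.954, over the same 10 animals that served to pick these genes. Of the 3, Ndufs8 was called, with a log2 fold change of -0.41 (edgeR adjusted p = 0.0268). Cat was followed most closely by Nudc (r = 0.964), Ap1ar (0.942) and Spryd3 (0.919), with r of 0.880, 0.809 and 0.737 after the group means were removed. These values describe the highest of many correlations, and the animals share their libraries across genes.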

How the data were processed

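Per the submitters' processing notes, bcl2fastq 2.17, Bowtie2 2.1.0, RSEM 1.2.15, edgeR and the build rn6 were used; the annotation is not given in the sources used here. Per the labels' protocols, RNA was column-purified and made into strand-specific mRNA libraries. The authors deposited estimated counts (RSEM expected counts, 2 decimals, not normalized) and a normalized signal (CPM after TMM scaling). Expected counts were rounded, filtered with filterByExpr and tested with edgeR 4.0.16 (R 4.3.3; quasi-likelihood, TMM, 10 animals, no covariate), with Benjamini-Hochberg adjustment over all genes. SE is that of the log2 fold change, its size over the square root of F; a prior count of 2 was added for log2 CPM. The labels do not tie same-numbered animals together; their deviations correlated between -0.32 and 0.15, so the main fit has no block. P-values set the difference between the groups against the spread between these animals. Pairs of libraries within groups differed beyond sampling noise (chi-square per degree of freedom from 4.60). A floor of 3 counts was 0.268 to 0.343 CPM, for counting error only. The 10 genes and the lists were chosen with earlier results of these data known. Named were the 10 genes, the called genes of each list or else the 3 with the smallest p, and the 3 genes most like each of the 2 members with the smallest p; Ccs, Keap1 and the genes under the other observations were added after their values were seen. Symbols were matched through RefSeq synonyms for Mt1, Bach2 and the red blood cell marker Hba-a2. No expression value was used here for Nfe2l1 and Pgd, whose promoter windows are counted, and Osgin1 was below the filter. Alternatives were other scalings and filters, DESeq2 1.42.0, limma 3.58.1 (voom, and trend on the deposited signal with pseudocounts 1 and 0.1), a replicate block, covariates, sva 3.50.0, an adjusted p under 0.1 and leaving out each animal. The choroid plexus score was the mean centred log2 CPM of the 2 choroid plexus markers that passed the filter, Ttr and Clic6.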

Additional observations from a re-analysis of the deposited data

Results flagged for a closer look

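Of 56 groups of 5 values checked (the named genes, the total count, the ribosomal RNA share and the summed marker levels), 2 had an extreme animal by Dixon's test at the 95% level, where chance gives about 2.8. For Glrx2 this was RG2833 replicate 5, at 27.8 CPM, while its group otherwise ran from 32.5 to 33.7 CPM. For the summed choroid plexus markers it was untreated replicate 1, at 2472 CPM, while its group otherwise ran from 4.82 to 21.3 CPM. Without that animal, Sod1 had a log2 fold change of -0.34 (edgeR adjusted p = 0.0975).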

How the results depend on the processing

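The number of the 10 genes called was 1 under 3 alternatives (DESeq2 size factors, library totals, a mean count of at least 50), 2 with DESeq2's Wald test and at an adjusted p under 0.1 (Sod1 and Cat), and 0 without the low-count filter, with limma-voom, with limma trend at either pseudocount, with the replicate block, the ribosomal RNA share, the choroid plexus score or 1 surrogate variable; without 1 animal it was 0 to 1. Over all genes 599 were called, against 1295 with DESeq2, 180 with the replicate block, 2 with the ribosomal RNA share, 241 with the choroid plexus score, 5 with 1 surrogate variable, 1466 at an adjusted p under 0.1 and 98 to 1556 without 1 animal (lowest without RG2833 replicate 5, highest without untreated replicate 4). Among regulators 0 became 1 with library totals or a mean count of at least 50 (Rbx1), 2 with DESeq2 or an adjusted p under 0.1, and 0 to 2 without 1 animal. Among other Nrf2 targets 2 became 4 with DESeq2 or an adjusted p under 0.1, 1 with the choroid plexus score (Txn1), 0 with the ribosomal RNA share or 1 surrogate variable, and 0 to 4 without 1 animal. Among other antioxidant genes 2 became 4 with DESeq2, 5 at an adjusted p under 0.1, 1 without the filter, 0 with the replicate block, the ribosomal RNA share, the choroid plexus score or 1 surrogate variable, and 0 to 4 without 1 animal. Direction turned for genes that did not pass: Hmox1 (-0.17 with the ribosomal RNA share, -0.23 with 1 surrogate variable, -0.031 to 0.14 without 1 animal), Gclm (0.0051 with the choroid plexus score, -0.14 to 0.069 without 1 animal) and Gpx4 (0.15 with the ribosomal RNA share). Estimates of genes that did not pass also moved by more than 1.5 times, with their sign kept, with the ribosomal RNA share (Gclm -0.56, Gpx1 -0.047, Nqo1 -0.13, Rbx1 -0.16, Btrc 0.17), with 1 surrogate variable (Gclm -0.010, Txnrd1 -0.0043, Sod2 -0.044, Gpx4 -0.084) and with the choroid plexus score (Hmox1 0.12). The cause of these changes was not tested. With the replicate block, edgeR adjusted p was 0.0851 for Sod1 and 0.124 for Cat. The numbers of the animals did not pair them. At about 112 counts per animal, Hmox1 and Gclm were measured least precisely.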

Other observations

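The largest estimates on the list of other Nrf2 targets belonged to Mt1 and Gsta4, which did not pass by edgeR over the 10 animals. Both were called lower by DESeq2's Wald test and by edgeR without untreated replicate 5, and Gsta4 also without untreated replicate 4. Mt1, a metallothionein that binds zinc and copper, was 11.5 ± 3.54 CPM without and 7.48 ± 1.19 CPM with RG2833 (SD, n = 5; log2 change -0.61, SE 0.20, adjusted p = 0.0905 by edgeR). Gsta4, a glutathione transferase that acts on lipid aldehydes, was 17.4 ± 3.81 and 11.4 ± 2.29 CPM (SD, n = 5; log2 change -0.60, SE 0.17, adjusted p = 0.0644 by edgeR). In the other direction, Msra, which repairs oxidised methionine, was 16.5 ± 2.93 and 21.5 ± 2.01 CPM (SD, n = 5; log2 change 0.38, SE 0.13, adjusted p = 0.0907 by edgeR). Sod3, the extracellular superoxide dismutase, was 58.6 ± 10.8 and 70.7 ± 3.18 CPM (SD, n = 5; log2 change 0.27, SE 0.11, adjusted p = 0.167 by edgeR). The estimated counts of Sod3 were split numbers in all 10 animals and those of Gsta4 in 8. The levels of Sod3 and Gsta4 are thus uncertain in the same respect as that of Cat.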
